A study of Mus musculus with 11 samples.

Results

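The 9 genes described here encode sugar-binding receptors of myeloid cells, 5 Siglecs (Siglecf, Siglec1, Siglece, Siglecg and Cd33) and 4 C-type lectin receptors (Clec7a, Clec4n, Clec4e and Clec4d). They were taken by name from a table of 57180 mouse genes, and all 9 were among the 19948 genes with enough reads to be tested. RNA was measured by bulk RNA-seq in alveolar macrophages, the resident phagocytes of the air spaces, sorted by flow cytometry from homogenised lungs of C57BL/6 WT mouse pups on postnatal day 7. Pups of 3 female and 2 male hyperoxia libraries (replicates 1 to 3 and 2 to 3) had been kept in 95% oxygen from postnatal day 1 to day 5. They were compared with 3 female and 3 male libraries of pups kept in normoxia. Neither the antibodies of the sort, nor whether a library is 1 pup or a pool, is given in the sources used here, so p-values measure the spread between libraries, which may be partly technical. The title of the series asks about sex as a biological variable.

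Siglecs are lectins that bind sialic acid, the sugar that caps many glycoproteins and glycolipids of the body's own cells. Most carry an inhibitory tail motif (ITIM) that recruits the phosphatases SHP-1 and SHP-2, encoded by Ptpn6 and Ptpn11, and so restrains activation. The 4 C-type lectin receptors bind sugars and glycolipids of fungi and mycobacteria and signal through the kinase SYK and the adaptor CARD9. Clec7a (Dectin-1) carries its own activating motif, whereas Clec4n (Dectin-2) and Clec4e (Mincle) couple to the Fc receptor gamma chain encoded by Fcer1g. Clec4d (MCL) is a partner of Clec4e. Siglec-F protein, the product of Siglecf, is a common surface marker of alveolar macrophages in mouse lung.

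The libraries held 18087948 to 32579468 counts over genes and 26856 to 35530 genes with a count. Levels are given as CPM, read counts scaled to the size of the library, which can be compared between libraries for 1 gene but not between genes of different length. The 17 alveolar macrophage markers summed to 8390 to 11500 CPM in hyperoxia and 8020 to 13200 CPM in normoxia, led by Lpl and Cd9. The 8 monocyte markers summed to 99.2 to 198 CPM in hyperoxia and 58.5 to 103 CPM in normoxia. The 7 interstitial macrophage markers summed to 20.6 to 99.4 CPM in hyperoxia and 16.1 to 36.5 CPM in normoxia, and the highest sum of both lists was in hyperoxia female 2. The 9 neutrophil markers summed to 31.4 to 38.1 CPM in hyperoxia and 33.2 to 62.3 CPM in normoxia. Markers of dendritic cells (6 genes), B cells (6), T and NK cells (5) and eosinophils (4) overlapped between the oxygen groups. Dendritic cell markers reached at most 14.7 CPM in hyperoxia and 11.5 CPM in normoxia, B cell markers 7.86 CPM in hyperoxia and 11 CPM in normoxia. T and NK cell markers reached at most 5.94 CPM in hyperoxia and 3.97 CPM in normoxia, and eosinophil markers 0.599 CPM in hyperoxia and 1.34 CPM in normoxia. Of the 9 neutrophil markers 1, Ly6g, was at 0 in every library. The most abundant 2 were Csf3r, at 10.2 to 50.3 CPM, and S100a8, at 3.28 to 11.9 CPM. In RNA of sorted cells, fewer cells of a type and less RNA per cell cannot be told apart.

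**Figure D1:**
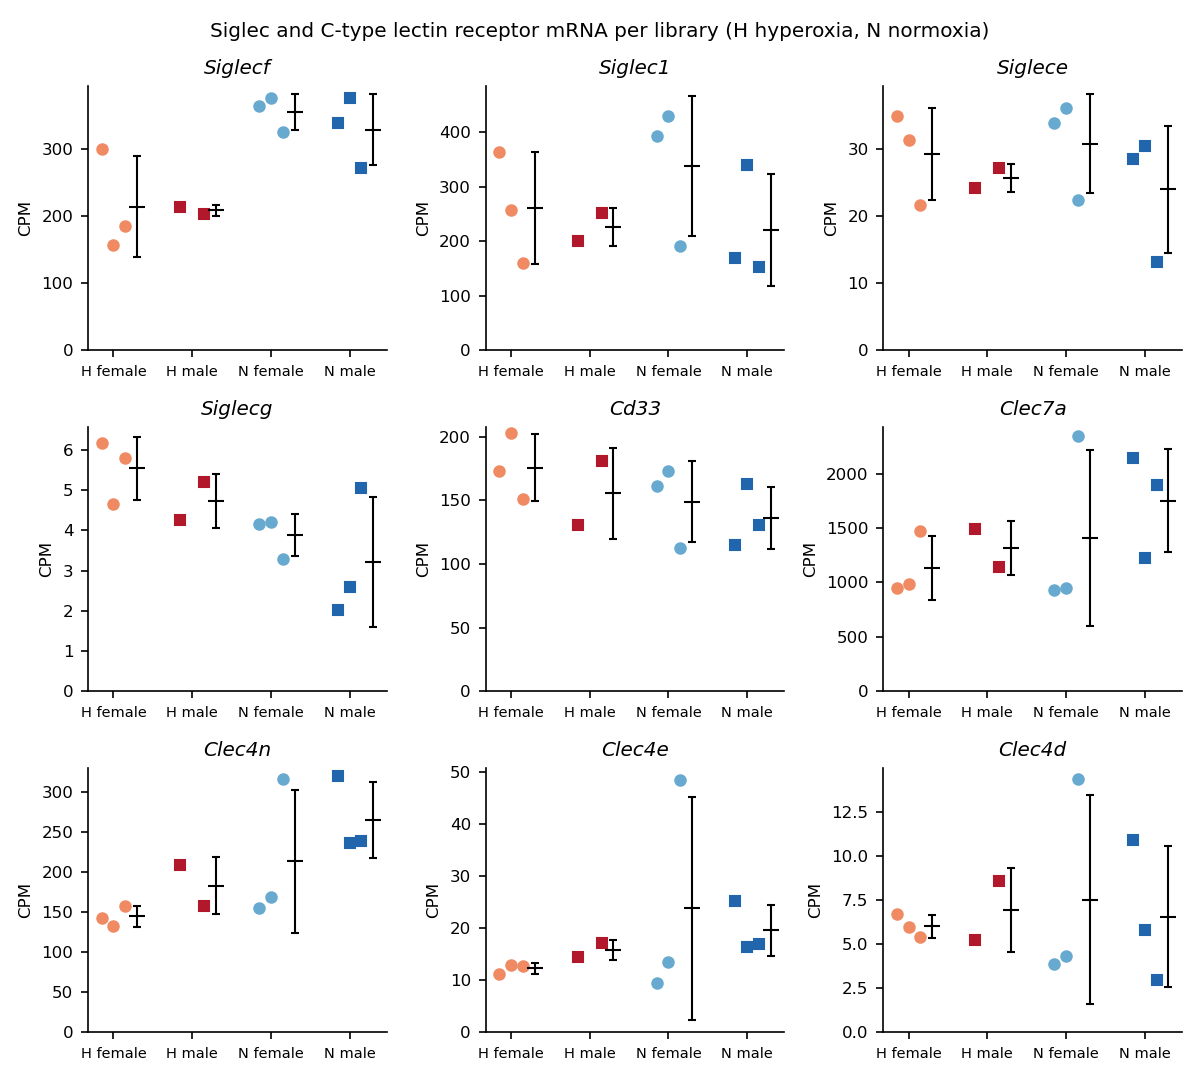
Level of each receptor mRNA in the 11 libraries, in CPM (y axis, starting at 0), by group (x axis: H hyperoxia, N normoxia). Points are libraries and the black marks beside them are the group mean and SD (n = 3, 2, 3 and 3); Siglecf is the receptor whose hyperoxia points lie below the normoxia points in each sex.

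No receptor passed the test of hyperoxia against normoxia averaged over the sexes (edgeR quasi-likelihood test, adjusted p under 0.05), where 0.707% of all genes tested passed. Siglecf, Clec4n and Siglecg were the 3 receptors with an unadjusted p under 0.05, a level reached by 8.13% of all genes tested. DESeq2, run on the same counts, called 1 of the 9, Siglecf, and 3.35% of the genes to which it gave an adjusted p. Of the 9 fitted differences, 3 were above 0 and 6 below. Their median was -0.17 on the log2 scale, against -0.03 over all genes tested.

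Siglecf had the strongest evidence of a difference among the 9. Its level was 300.3, 157 and 186 CPM in hyperoxia females and 215 and 203 CPM in hyperoxia males, against 364, 377 and 326 CPM in normoxia females and 339, 377 and 273 CPM in normoxia males. Every hyperoxia library lay below every normoxia library of its own sex, and across the sexes 1 hyperoxia female (replicate 1) lay above 1 normoxia male (replicate 3). Of all genes tested, 3.44% separated in the same direction in both sexes, and 1.01% were lower in both. Over the 11 libraries together 0 of 9 receptors separated, against 2.16% of all genes tested. The mean was 212 ± 53.8 CPM in hyperoxia (SD, n = 5) and 343 ± 40.0 CPM in normoxia (SD, n = 6).

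The fitted log2 fold change of Siglecf was -0.69 (SE 0.20, 95% interval -1.12 to -0.27), which did not pass the edgeR quasi-likelihood test over all genes (adjusted p = 0.158). DESeq2's Wald test gave -0.72 with an adjusted p of 0.00196. Leaving out each library in turn moved the edgeR estimate between -0.855 and -0.60, with adjusted p between 0.0619 and 0.832. Over all 17 alternative fits the estimate ran from -0.855 to -0.538. The direction was therefore the same in all of these fits, while the call depended on the tool.

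The same gene was set against other products of the same libraries. Siglecf was expressed as a percent of the summed alveolar macrophage markers, a sum that does not include it. This was 2.62, 1.70 and 2.21% in hyperoxia females and 2.17 and 1.96% in hyperoxia males. In normoxia the values were 2.94, 2.90 and 2.96% in females and 2.72, 2.86 and 3.40% in males. All 5 hyperoxia values lay below all 6 normoxia values, whereas in CPM the oxygen groups overlapped across the sexes. The share of all genes that would separate over this sum is not given here. That sum is not a fixed yardstick, since 4 of its 17 genes fell in hyperoxia (edgeR quasi-likelihood test): Fabp1 and Fabp4, fatty acid binding proteins, Ctsk, a lysosomal protease, and Krt79, a keratin. DESeq2 called 5, adding Chil3. By fitted value 15 of the 17 were below 0 and 2 above, with a median log2 fold change of -0.28. The summed monocyte markers, given above, were higher in hyperoxia for all 8 genes by fitted value, with 0 of 8 past the edgeR test and 1, Treml4, called by DESeq2, and their part in the Siglecf result was not tested. Hyperoxia female 2, with the highest sums of monocyte and interstitial macrophage markers, had the lowest Siglecf level, and without it the log2 fold change was -0.60.

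Siglecf and Cd33 lie on the same mouse chromosome, and Cd33 encodes another Siglec of myeloid cells. Counts of Siglecf per count of Cd33 were 1.74, 0.774 and 1.23 in hyperoxia females and 1.65 and 1.13 in hyperoxia males. The ratio was 2.26, 2.18 and 2.89 in normoxia females and 2.94, 2.32 and 2.08 in normoxia males. The hyperoxia and normoxia libraries did not overlap, with Cd33 outnumbering Siglecf in 1 library, hyperoxia female replicate 2. Among the 36 pairs of receptors, 3 ratios separated the oxygen groups, and each had Siglecf on top, over Siglece, Siglecg or Cd33. The ratio of Siglecf to any other gene separated them for 30.8% of 17577 genes, so such a separation is common. These ratios and the percentages of the marker sum were chosen after their values were seen and carry no test.

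**Figure D2:**
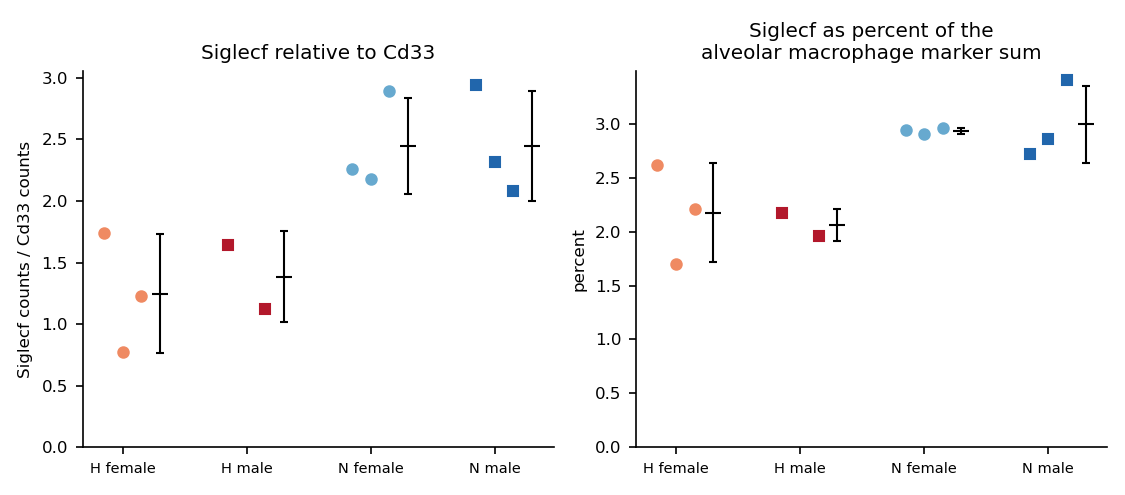
Siglecf counts divided by Cd33 counts (left y axis) and Siglecf CPM as a percent of the summed CPM of 17 alveolar macrophage markers (right y axis), by group (x axis: H hyperoxia, N normoxia). Points are libraries and black marks are mean and SD; the hyperoxia libraries reach at most 1.74 and 2.62%, below the lowest normoxia values of 2.08 and 2.72%.

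The promoters of these 2 receptors are shown because the pair separated in the counts and because, of the receptor promoters compared, theirs share the most sequence. Both come from RefSeq on build GRCm38.p6 and span 250 bases before to 50 bases after the annotated start of the gene. Siglecf is at chr7:43351091-43351390 on the plus strand and Cd33 at chr7:43533122-43533421 on the minus strand, and each is printed 5′ to 3′ on its gene's strand. Capitals mark every run of at least 10 bases found in both.
Siglecf promoter: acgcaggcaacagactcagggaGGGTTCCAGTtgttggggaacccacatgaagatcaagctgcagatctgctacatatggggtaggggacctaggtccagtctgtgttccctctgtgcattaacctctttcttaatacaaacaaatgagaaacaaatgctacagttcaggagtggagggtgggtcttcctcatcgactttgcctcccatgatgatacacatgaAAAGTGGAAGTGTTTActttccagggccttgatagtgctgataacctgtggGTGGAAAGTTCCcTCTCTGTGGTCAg
Cd33 promoter: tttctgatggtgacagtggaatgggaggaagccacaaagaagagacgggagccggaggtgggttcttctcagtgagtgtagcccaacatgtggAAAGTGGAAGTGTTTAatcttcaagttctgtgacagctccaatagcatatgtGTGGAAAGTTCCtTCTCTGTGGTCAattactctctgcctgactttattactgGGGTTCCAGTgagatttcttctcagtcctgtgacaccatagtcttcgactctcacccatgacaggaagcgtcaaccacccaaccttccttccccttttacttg
The 2 promoters share 4 such runs, in the same orientation. The run AAAGTGGAAGTGTTTA begins 27 bases before the start of Siglecf and 157 bases before that of Cd33. The run GTGGAAAGTTCC begins 24 bases after the start of Siglecf, in the transcribed stretch, and 105 bases before that of Cd33, and TCTCTGTGGTCA follows each after 1 further base. Searched on both strands of 32851 RefSeq promoters of 300 bases, each of the runs AAAGTGGAAGTGTTTA and GTGGAAAGTTCC was found in these 2 promoters and no other (0.00609%). The run TCTCTGTGGTCA was in 9 promoters (0.0274%) and GGGTTCCAGT in 27 (0.0822%). RefSeq promoters were matched for 7 of the 9 receptors, and no other pair of them shared more than 1 run of 10 bases. These are matches of letters and carry no information on binding.

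Cd33 itself had 173, 203 and 151 CPM in hyperoxia females and 130.4 and 181 CPM in hyperoxia males, against 161, 173 and 113 CPM in normoxia females and 115, 163 and 131 CPM in normoxia males. The groups overlapped in both sexes. Its log2 fold change was 0.21 (95% interval -0.18 to 0.61; edgeR quasi-likelihood test, adjusted p = 0.922). It was 0.09 without hyperoxia male 3.

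Siglec1 (sialoadhesin, CD169) is a macrophage Siglec that lacks the inhibitory motif and is known as interferon-inducible. It had 364, 258 and 160.3 CPM in hyperoxia females and 201 and 251 CPM in hyperoxia males, against 394, 430.1 and 191 CPM in normoxia females and 170.1, 339 and 153 CPM in normoxia males. Levels spread more than 2-fold within normoxia females and normoxia males alike, and the oxygen groups overlapped. Fitted over all libraries, the log2 fold change was -0.17 (95% interval -0.75 to 0.41; edgeR quasi-likelihood test, adjusted p = 0.993).

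Hyperoxia female 2 stood apart in interferon-stimulated genes, whose 20 listed members summed to 421 CPM there, against 196 to 247 CPM in the other hyperoxia libraries and 159 to 257 CPM in normoxia. Its Siglec1 level of 258 CPM lay inside the range of the other hyperoxia libraries. Without that library the log2 fold change of Siglec1 was again -0.17 (edgeR quasi-likelihood test, adjusted p = 1). Without normoxia male 2 the sign turned, to 0.06.

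Siglecg, a Siglec best known as an inhibitor of B cell receptor signalling, was low in every library. It had 6.17, 4.66 and 5.8 CPM in hyperoxia females and 4.26 and 5.20 CPM in hyperoxia males, against 4.17, 4.20 and 3.28 CPM in normoxia females and 2.03, 2.58 and 5.06 CPM in normoxia males. Hyperoxia females lay above normoxia females without overlap, a separation seen for 10.2% of all genes tested in one direction or the other. Males overlapped through 1 normoxia library. A log2 fold change of 0.53 was fitted (SE 0.24, 95% interval 0.03 to 1.03), short of the edgeR quasi-likelihood test over all genes (adjusted p = 0.543). The summed B cell markers, given above, overlapped between the oxygen groups. In females, all 6 B cell markers had fitted values above 0 (median 0.325), and 0 passed the edgeR test. In males 2 were above 0 and 4 below (median -0.491). Their part in the Siglecg result was not tested.

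Siglece, an inhibitory Siglec of mouse myeloid cells, had 34.9, 31.3 and 21.6 CPM in hyperoxia females and 24.2 and 27.1 CPM in hyperoxia males, against 33.9, 36.0 and 22.4 CPM in normoxia females and 28.5, 30.4 and 13.1 CPM in normoxia males. Its means were 27.8 ± 5.36 CPM in hyperoxia (SD, n = 5) and 27.4 ± 8.45 CPM in normoxia (SD, n = 6). The log2 fold change was 0.01, and its 95% interval, -0.44 to 0.47, holds differences in either direction (edgeR quasi-likelihood test, adjusted p = 0.999).

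**Figure D3:**
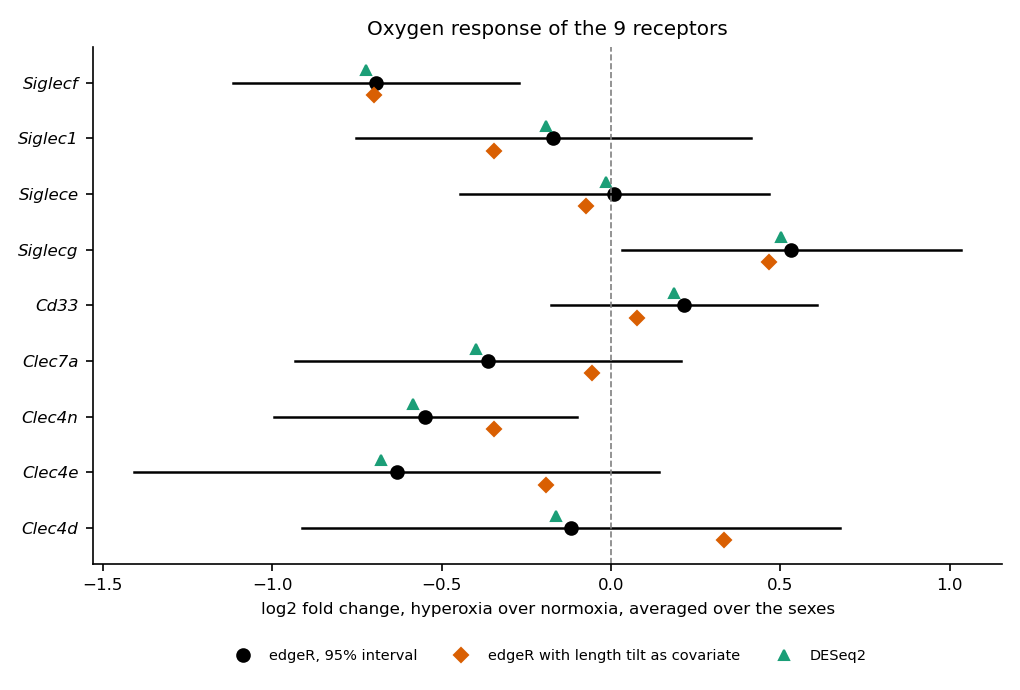
Log2 fold change of each receptor, hyperoxia over normoxia averaged over the sexes (x axis). Black points and lines are the edgeR estimate and its 95% interval, triangles the DESeq2 estimate, and diamonds the edgeR estimate with the length tilt of each library (long against short genes) as a covariate; Siglecf stays near -0.7 in all of them, and Clec7a moves from -0.36 to -0.06 with the covariate.

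Among the C-type lectin receptors all 4 fitted differences were below 0, none past the test, and the median was -0.46. Clec4n, the receptor for fungal mannans, had 143, 133 and 158 CPM in hyperoxia females and 208 and 158 CPM in hyperoxia males, against 155, 168 and 316 CPM in normoxia females and 319.7, 236 and 239 CPM in normoxia males. Hyperoxia males lay below normoxia males without overlap, a separation seen for 17.1% of all genes tested in one direction or the other. In females 1 hyperoxia library lay between the normoxia ones. The log2 fold change was -0.55 (SE 0.21, 95% interval -0.995 to -0.10), not past the edgeR quasi-likelihood test over all genes (adjusted p = 0.41). Without normoxia female 3 it was -0.35.

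Clec7a, the receptor for fungal beta-glucans, had 949, 982 and 1473 CPM in hyperoxia females and 1490.3 and 1144 CPM in hyperoxia males, against 935, 949 and 2340.1 CPM in normoxia females and 2138, 1226 and 1893 CPM in normoxia males. The mean was 1208 ± 261 CPM in hyperoxia (SD, n = 5) and 1580.0 ± 621 CPM in normoxia (SD, n = 6). Normoxia was split within itself: female 3 and males 1 and 3 lay above every hyperoxia library, and the other 3 lay within or below the hyperoxia range. The log2 fold change was -0.36 (95% interval -0.93 to 0.21; edgeR quasi-likelihood test, adjusted p = 0.881), and -0.07 without normoxia female 3.

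Clec4e, a receptor for a mycobacterial glycolipid, had 11.2, 12.9 and 12.8 CPM in hyperoxia females and 14.4 and 17.2 CPM in hyperoxia males, against 9.54, 13.6 and 48.5 CPM in normoxia females and 25.3, 16.4 and 17.1 CPM in normoxia males. Normoxia female 3 was the highest of all 11 libraries. The log2 fold change was -0.63 (95% interval -1.41 to 0.14; edgeR quasi-likelihood test, adjusted p = 0.767), and -0.11 without that library.

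Clec4d was near the bottom of the scale, with 6.70, 5.96 and 5.39 CPM in hyperoxia females and 5.24 and 8.60 CPM in hyperoxia males, against 3.88, 4.34 and 14.4 CPM in normoxia females and 10.9, 5.79 and 2.99 CPM in normoxia males. The hyperoxia libraries lay inside the normoxia range. Its log2 fold change was -0.12 (edgeR quasi-likelihood test, adjusted p = 0.998), and 0.32 without normoxia female 3.

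The libraries also differed in the balance of long and short genes. For each library a length tilt was computed as the mean log2 deviation from the all-library mean over genes with at least 6914 bases of exon, minus that over genes with up to 2785 bases. It was 0.17, 0.39 and -0.01 in hyperoxia females and -0.23 and 0.13 in hyperoxia males, against 0.27, 0.27 and -0.27 in normoxia females and -0.56, 0.01 and -0.17 in normoxia males. Normoxia males 1 and 3 and normoxia female 3, high for Clec7a, were among the 4 libraries with the lowest tilt. The mean was 0.09 ± 0.23 in hyperoxia (SD, n = 5) and -0.07 ± 0.33 in normoxia (SD, n = 6).

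Across the 11 libraries, which share this axis with every gene, Pearson's r with the tilt was -0.91 for Clec7a, -0.89 for Clec4n and -0.68 for Clec4e. It was 0.93 for Cd33 and 0.72 for Siglec1, and -0.20 for Siglecf. Cd33 and Siglec1 have 7771 and 7143 bases of exon, while Clec7a, Clec4n and Siglecf have 2638, 1420 and 2790. The other receptors did not all order by length. Siglece, with 1849 bases, had r = 0.49, and Clec4d, with 1599, had r = -0.44. Siglecg, with 4806 bases, had r = 0.58, whereas Clec4e has 4965. With the tilt as a covariate the log2 fold changes were -0.06 for Clec7a, -0.35 for Clec4n, -0.19 for Clec4e and 0.34 for Clec4d, where the sign turned. Cd33, with the highest r, had 0.08. That of Siglecf was -0.70 (edgeR quasi-likelihood test, adjusted p = 0.135). The tilt was defined after the data had been seen, and what produced it was not tested.

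**Figure D4:**
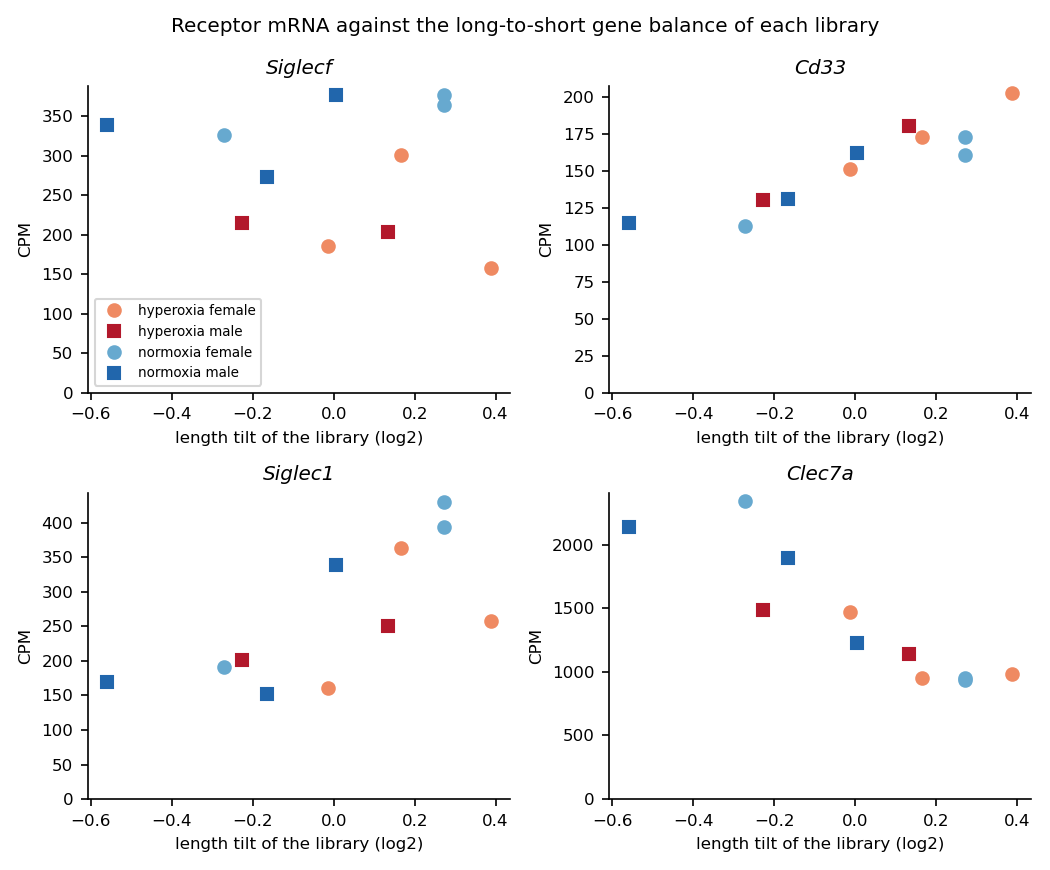
Level of Siglecf, Cd33, Siglec1 and Clec7a in CPM (y axes, starting at 0) against the length tilt of the library in log2 units (x axis), 1 point per library. Cd33 and Clec7a follow the tilt in opposite directions whatever the oxygen group (r = 0.93 and -0.91), whereas Siglecf does not order along it (r = -0.20).

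The receptors varied together in blocks. Clec7a, Clec4n, Clec4e, Cd33 and Siglec1 also had r of -0.91, -0.89, -0.68, 0.93 and 0.72 with the length tilt. Its part in the correlations below was not tested, and the share of all gene pairs with such values is not given. Over the 11 libraries Clec7a and Clec4n had r = 0.88, Clec7a and Clec4e 0.82, and Clec4n and Clec4e 0.83, while Siglec1 and Siglece had 0.81. Cd33 and Clec7a ran opposite, with r = -0.91, and Siglec1 and Clec7a with r = -0.83. After removing the means of the 4 groups the same 6 values were 0.91, 0.83, 0.88, 0.80, -0.91 and -0.92, so these relations lay between libraries of the same group. For Siglecf, r over all libraries ran from -0.54 with Siglecg to 0.47 with Clec4n, which became -0.08 and -0.09 once the group means were removed. Within groups its highest values were 0.62 with Siglec1 and 0.58 with Siglece.

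Among 11246 genes, the 3 whose log2 level was most like that of Siglecf were Krt19, a keratin (r = 0.97), Mcoln3, an endolysosomal cation channel (r = 0.97), and Cidec, a lipid droplet protein (r = 0.97). Of these, Mcoln3 and Cidec fell in hyperoxia, with log2 fold changes of -1.16 and -1.35 (edgeR quasi-likelihood test, adjusted p = 0.0139 and 0.00901). They were picked by likeness over all 11 libraries, oxygen groups included. Their fall therefore follows in part from the choice and is no separate evidence on Siglecf. The closest gene to Clec7a was Sar1b (r = 0.99), to Clec4n Cstb (r = 0.98), to Clec4e Nutf2 (r = 0.92), to Siglec1 Wdr81 (r = 0.99), to Siglece Caprin1 (r = 0.99) and to Cd33 Clcn3 (r = 0.98). None of these 6 passed the test of oxygen, which likewise follows in part from how they were picked.

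Divided by exon length, the levels can be ordered approximately between genes. The length used covers all annotated exons of a gene, which may exceed that of the transcript expressed. The libraries also differed in their balance of long and short genes. By this measure Clec7a was the most abundant of the 9, at 458 ± 99.0 CPM per kilobase in hyperoxia (SD, n = 5) and 599 ± 235 in normoxia (SD, n = 6). Clec4n followed at 113 ± 20.4 CPM per kilobase in hyperoxia and 168 ± 49.3 in normoxia, and Siglecf at 76.1 ± 19.3 in hyperoxia and 123 ± 14.3 in normoxia. Clec4n lay above Siglecf in 8 of 11 libraries, so these neighbours were not cleanly ordered. Below them came Siglec1 at 34.6 ± 10.7 CPM per kilobase in hyperoxia and 39.1 ± 17.1 in normoxia, Cd33 at 21.6 ± 3.59 in hyperoxia and 18.4 ± 3.38 in normoxia, and Siglece at 15.1 ± 2.90 in hyperoxia and 14.8 ± 4.57 in normoxia. Siglecf exceeded Siglec1, and Siglec1 exceeded Cd33, in all 11 libraries, and Cd33 exceeded Siglece in 10. Clec4d (3.99 ± 0.857 CPM per kilobase in hyperoxia and 4.40 ± 2.84 in normoxia) and Clec4e (2.76 ± 0.454 in hyperoxia and 4.38 ± 2.84 in normoxia) changed places in 3 of 11 libraries, and Siglecg was lowest in all 11, at 1.09 ± 0.164 in hyperoxia and 0.739 ± 0.235 in normoxia.

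Sex was tested in the same fit. In females alone 0 of 9 receptors passed the edgeR quasi-likelihood test of hyperoxia against normoxia (0.0401% of all genes did), and 1 had an unadjusted p under 0.05 (4.53% of all genes did). DESeq2 called 0 of 9 receptors in females and 0.638% of genes. In males alone 0 of 9 passed (0.0401% of all genes did), and 1 had an unadjusted p under 0.05 (5.5% of all genes did). DESeq2 called 0 of 9 receptors in males and 0.517% of genes. The receptor under 0.05 was Siglecf in each sex, with a log2 fold change of -0.73 in females (SE 0.26, adjusted p = 0.74) and -0.66 in males (SE 0.30, adjusted p = 0.903). Clec4n had -0.56 in females and -0.53 in males, and the female value was -0.16 without normoxia female 3. Siglecg had 0.51 in females and 0.55 in males, and the male value ran from 0.27 without normoxia male 1 to 1.04 without normoxia male 3.

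The difference between the female and male responses (the interaction) was past the test for 0 of 9 receptors and 0% of all genes, with 0 receptors at an unadjusted p under 0.05 (1.67% of all genes) and 0 called by DESeq2 (0.0151% of genes). Its values ran from -0.64 for Clec4e to 0.10 for Clec7a. For Siglecf it was -0.07 with a 95% interval of -0.91 to 0.76, which leaves room for responses that differ by more than the response itself. Averaged over oxygen, females against males gave 0 of 9 receptors past the edgeR test (0.0251% of all genes), 0 at an unadjusted p under 0.05 (3.27% of all genes) and 0 by DESeq2 (0.176% of genes). In this contrast the 5 Siglecs had fitted values above 0 and the 4 C-type lectin receptors below 0. They ran from -0.33 for Clec4n to 0.41 for Siglec1, with edgeR adjusted p of at least 0.994. The length tilt ran from -0.27 to 0.39 in female libraries and from -0.56 to 0.13 in male libraries. Its r was negative for the 4 C-type lectin receptors and positive for the Siglecs other than Siglecf. Its part in this split was not tested.

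The genes around the receptors gave few calls of oxygen. Of 4 other Siglecs tested, 0 passed the edgeR test and 0 were called by DESeq2, and the median log2 fold change was -0.24. Among them Cd22, a B cell Siglec, averaged 61.3 ± 16.9 CPM in hyperoxia (SD, n = 5) and 90.6 ± 26.5 CPM in normoxia (SD, n = 6), with a log2 fold change of -0.56 (edgeR quasi-likelihood test, adjusted p = 0.476). Mag, a Siglec known from myelin, had -0.40 (adjusted p = 0.411).

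Of 25 other C-type lectins 19 were tested, with a median log2 fold change of 0.01, and 1 passed the edgeR test, downward. DESeq2 called 4, with Clec2d and Colec12 lower and Clec5a and Clec9a higher. Clec2d, the ligand of an inhibitory receptor of NK cells, fell to 19.9 ± 2.45 CPM in hyperoxia (SD, n = 5), against 39.9 ± 9.99 CPM in normoxia (SD, n = 6), a log2 fold change of -0.99 (SE 0.18; edgeR quasi-likelihood test, adjusted p = 0.0139). That call was lost without hyperoxia female 2 (edgeR adjusted p = 0.0595). It was also lost without hyperoxia male 2 or hyperoxia male 3, which leaves 1 hyperoxia male, with log2 fold changes of -1.08 and -0.896. Leaving out the 4 libraries in which most genes were detected, which leaves 1 hyperoxia female, lost it too (log2 fold change -0.93). Clec5a, a SYK-coupled lectin receptor, averaged 73.4 ± 7.12 CPM in hyperoxia and 44.1 ± 11 CPM in normoxia, with a log2 fold change of 0.74 (edgeR quasi-likelihood test, adjusted p = 0.0841). Clec5a passed with DESeq2 (adjusted p = 0.00773), and in edgeR with no filter on low counts (0.0228), with a replicate block (0.029) and without normoxia male 1 (0.0121).

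Downstream of the C-type lectins, 0 of 20 genes of the SYK and CARD9 pathway passed the edgeR test, with a median of -0.04, and DESeq2 called 1, Vav3. The smallest p among them was that of Vav3, a guanine nucleotide exchange factor, with 25.5 ± 2.34 CPM in hyperoxia and 17.9 ± 2.40 CPM in normoxia (log2 fold change 0.52; edgeR quasi-likelihood test, adjusted p = 0.107; DESeq2 adjusted p = 0.0109). Tyrobp, the adaptor DAP12, had -0.54 (adjusted p = 0.411). Of 14 cytokine and immediate response genes 9 were tested and 0 passed in edgeR or DESeq2, with a median of -0.26. Il6, Il10, Il23a, Csf2 and Ptgs2 fell under the filter on low counts. The chemokine gene Cxcl2 had 4.05 ± 1.17 CPM in hyperoxia and 6.70 ± 3.21 CPM in normoxia (edgeR quasi-likelihood test, adjusted p = 0.486).

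On the Siglec side, 0 of 3 phosphatase genes passed in edgeR or DESeq2, with log2 fold changes from -0.06 for Ptpn6 to 0.22 for Ptpn11. Of 27 genes that make, attach or remove sialic acid, the ligand of Siglecs, 1 passed in edgeR and in DESeq2, and the median was 0.01. St8sia4, a polysialyltransferase, rose to 22.2 ± 2.81 CPM in hyperoxia (SD, n = 5), against 14.4 ± 1.43 CPM in normoxia (SD, n = 6), a log2 fold change of 0.64 (SE 0.14; edgeR quasi-likelihood test, adjusted p = 0.0403). The call was lost in 8 of the 11 fits that leave out 1 library, and with no filter on low counts (edgeR adjusted p = 0.0799). It was also lost without those 4 libraries in which most genes were detected, where 1 hyperoxia female is left (log2 fold change 0.579). The call held without hyperoxia female 3, normoxia male 1 or normoxia male 3. Of 20 interferon-stimulated genes 19 were tested and 0 passed in edgeR, with a median of 0.73. DESeq2 called 1, Ifit2 (adjusted p = 0.0306), and their highest sum was that of hyperoxia female 2.

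**Figure D5:**
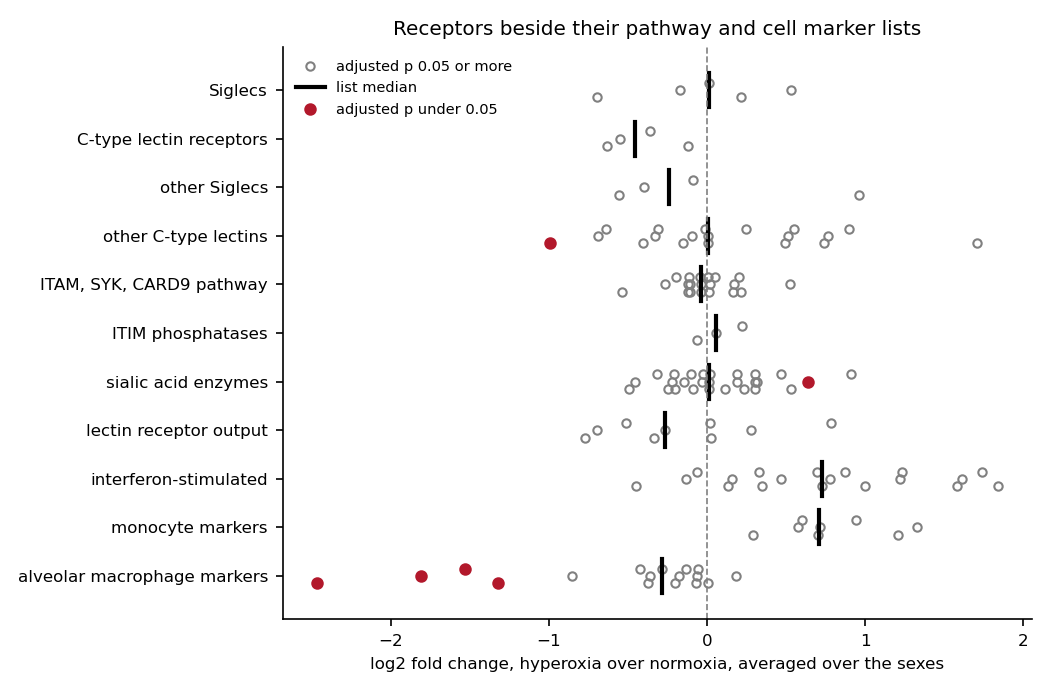
Log2 fold change, hyperoxia over normoxia averaged over the sexes (x axis), of each tested gene in the receptor, pathway and cell marker lists (y axis). Open circles did not pass the edgeR test at an adjusted p under 0.05, filled circles did, and bars are list medians; among the receptor and pathway lists the filled circles are Clec2d and St8sia4.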

How the data were processed

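The authors deposited raw whole-number counts, 1 per Ensembl gene in each library. Trim Galore 0.6.7 and Salmon 1.10.1, the aligner STAR 2.7.9, DESeq2 1.42 and the build mm39 are named in the submitters' processing notes; which step made the counts is not given in the sources used here. Per the labels' protocols, low-input cDNA libraries carried molecular identifiers that were trimmed, and some were stripped of short fragments and resequenced. Collapsing of duplicates and use of strand are not stated, so reads of overlapping or near-identical genes can be split. A symbol was matched for 51884 of 57180 identifiers.

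From the counts, genes passing filterByExpr in edgeR 4.0.16 (19948) were scaled by TMM and fitted with the robust quasi-likelihood model, with 1 mean for each of the 4 oxygen-by-sex groups over 11 libraries. The 5 contrasts were tested with glmQLFTest and Benjamini-Hochberg adjustment over all genes tested, with a threshold of 0.05. Standard errors and 95% intervals derive from the F statistic and cover these libraries. Values are CPM of TMM-scaled library sizes, at 18087948 to 32579468 counts per library. Exon lengths come from GENCODE M21 and promoters from RefSeq GRCm38.p6; no coordinate was converted between builds. The fit was also run on simulated counts with known changes. These had no length tilt and no sex differences, so that run cannot vouch for the fit here.

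Alternatives were RLE scaling, no filter, DESeq2 1.42.0, each library left out, the 4 libraries with most genes detected left out, a replicate block, fits of 1 sex and, chosen after seeing the data, the length tilt as a covariate. The 4 libraries were normoxia male 3, normoxia female 3 and hyperoxia females 2 and 3, which leaves hyperoxia female 1 alone in its group. Leaving out a hyperoxia male likewise leaves 1. The members and lists were chosen with earlier results of these data known. Named beside the receptors are, per list, genes past the test and the 3 of smallest p, per marker list the 2 most abundant, and per receptor of mean log2 CPM of at least 3 the 3 genes of mean log2 CPM of at least 1 with the highest Pearson r, of which the text prints the first for all but Siglecf. Ly6g, Colec12 and the marker genes that fell were named after their values were seen.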

Additional observations from a re-analysis of the deposited data

Results flagged for a closer look

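No receptor library stood far from its group by Dixon's criterion at the 95% level. Of 60 groups of values tested for the receptors and the genes named beside them, 5 had such a library, and chance gives about 1 in 20. In hyperoxia female 2, Oasl2 had 13.2 CPM, with 2.32 CPM in the next hyperoxia library, Ifit2 had 16.1 CPM with 3.22 CPM next, and Ifit3 had 9.21 CPM with 0.755 CPM next. These 3 interferon-stimulated genes share that library. Il1b, which encodes the cytokine IL-1 beta, had 26.0 CPM in hyperoxia female 2, with 16.9 CPM in the next hyperoxia library. In normoxia it had 41.5 CPM in normoxia male 1, with 21.2 CPM in the next.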

How the results depend on the processing

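Of the receptor fold changes refitted over both sexes and in each sex, 452 kept direction and side of the threshold, 1 became past it (Siglecf with DESeq2, the 1 receptor called) and 40 changed sign; Siglecf, Siglecg and Clec4n changed sign in none. Where a value changed, the cause was not tested. Over both sexes Siglece was -0.015 with RLE scaling, -0.015 with DESeq2, -0.10 without the 4 libraries with most genes detected and -0.0721 with the length tilt, and Clec4d was 0.22 without those 4 and 0.34 with the tilt. Leaving out each library gave ranges of -0.329 to 0.055 for Siglec1, -0.148 to 0.114 for Siglece and -0.319 to 0.316 for Clec4d. Without the 4 libraries, hyperoxia female 1 was the only hyperoxia female, and in females Clec7a was 0.0102 and Clec4d 0.705. With the tilt, Clec4d in females was 0.071. Leave-one-out ranges in females were -0.253 to 0.104 for Siglece and -0.555 to 0.272 for Clec7a. They were -1.34 to 0.091 for Clec4e and -0.639 to 0.553 for Clec4d. In males Siglec1 was -0.165, Siglece -0.197 and Clec4d -0.262 without the 4 libraries; with the tilt Siglec1 was -0.233, Siglece -0.0317, Cd33 -0.0070 and Clec4e 0.122; leave-one-out ranges were -0.154 to 0.486 for Siglec1, -0.197 to 0.302 for Siglece, -0.0427 to 0.432 for Cd33 and -0.306 to 0.642 for Clec4d. Among list genes, leave-one-out ranges were -1.81 to 1.47 for Siglech, -0.171 to 0.0114 for Ptpn6 and -0.0608 to 0.24 for Inpp5d; Ptpn6 was 0.00041 with the replicate block, and Inpp5d -0.0457 without the 4 libraries and -0.0839 with the tilt.

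Counts over all genes moved more. Over both sexes 141 genes passed, against 302 with no filter, 448 with DESeq2, 23 without the 4 libraries, 256 with the replicate block and 36 to 195 leaving out 1 library. In females 8 passed, against 96, 95, 2 and 23 under those 4 settings, 14 with that sex alone and 0 to 24 leaving out 1. In males 8 passed, against 83, 89, 16 and 21, 34 with that sex alone, 2 with the tilt and 0 to 19 leaving out 1. The interaction gave 0, against 6 with no filter, 3 with DESeq2, 1 without the 4 libraries and 0 to 1 leaving out 1. Females against males gave 5, against 62 with no filter, 35 with DESeq2, 9 with the block and 5 to 14 leaving out 1. Deviations of same-numbered libraries had r over 0.1 in 7 of 15 pairs (-0.358 to 0.615), against 13 of 30 differently numbered pairs (-0.646 to 0.43). Without the 2 hyperoxia males, whose deviations mirror each other, 7 of 9 same-numbered pairs were over 0.1. The labels do not say that numbers mark a shared source, and pairing was not established. The replicate block left 0 receptors past the test. With 2 or 3 libraries per group, single-sex and interaction intervals are wide.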
